A study of Schizosaccharomyces pombe with 2 samples.

Results

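Antisense XUTs that cross the start of an mRNA but not its end were examined in small RNA libraries of the fission yeast Schizosaccharomyces pombe. A XUT is a long noncoding RNA annotated by the study for its accumulation in cells that lack Exo2, the fission yeast Xrn1, which degrades cytoplasmic RNA from the 5′ end. A XUT was kept if it wholly contained no mRNA of the opposite strand, overlapped one by at least 50 nt, and covered the 5′ end but not the 3′ end of the opposite mRNA with the longest overlap, called its partner below. The choice used positions alone and no read. It gave 300 of the 1638 XUTs and of the 1205 antisense XUTs, with 300 distinct partner mRNAs, among the 9139 features of the table.

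The WT strain YAM2394, of mating type h+, carried the auxotrophic alleles leu1-32, ura4-D18 and ade6-M210. Strain YAM2397 carried the same alleles and a deletion of exo2, exo2Δ::kanMX4. Both were harvested in exponential growth in rich YES medium. The libraries, 1 per strain, were made from gel-purified RNA in the size range from 10 to 40 nt. The values below therefore carry no error between replicates, and the strains could not be compared by a test. Intervals of folds, ratios and sums cover counting error only. Those of medians reflect the spread over features.

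An antisense RNA that runs through the start of a gene is complementary to the first part of the mRNA, and its transcription can reach into the promoter. Where sense and antisense RNAs pair, the double strand can be cut by Dicer into small RNAs, which in fission yeast are loaded on Argonaute and are best known from pericentromeric heterochromatin. In Xrn1 mutants, decapped RNAs that would be degraded from the 5′ end can persist, antisense and sense RNAs alike. A small RNA read in a gene can also be a piece of a degraded longer RNA, and the table does not separate these sources.

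These XUTs run through the mRNA start and, by differing lengths, into the sequence before it. The 100 nt upstream of the annotated start are shown for 6 partners whose pair carried large values or was named by the study, on the mRNA strand, 5′ to 3′, from RefSeq ASM294v3. They are bir1 (III:549300-549399, minus strand), gal1 (II:4488198-4488297, plus strand), rpc11 (I:1162949-1163048, plus strand), osh2 (II:1728673-1728772, plus strand), gto1 (I:5474946-5475045, minus strand) and SPBC8E4.05c (II:4430090-4430189, plus strand). Capitals mark TATAAA or AATAAA on the mRNA strand, or their complements TTTATA or TTTATT, which read TATAAA or AATAAA on the XUT strand.
bir1: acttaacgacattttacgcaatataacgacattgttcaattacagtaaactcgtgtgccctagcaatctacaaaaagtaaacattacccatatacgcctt
gal1: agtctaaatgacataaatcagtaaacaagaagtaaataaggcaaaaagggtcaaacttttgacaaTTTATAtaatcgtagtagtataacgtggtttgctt
rpc11: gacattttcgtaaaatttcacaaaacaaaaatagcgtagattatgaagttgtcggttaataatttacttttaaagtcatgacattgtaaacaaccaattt
osh2: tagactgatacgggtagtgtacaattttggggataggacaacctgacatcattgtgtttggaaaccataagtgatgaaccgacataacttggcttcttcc
gto1: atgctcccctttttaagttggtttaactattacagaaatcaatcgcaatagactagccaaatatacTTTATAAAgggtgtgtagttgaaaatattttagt
SPBC8E4.05c: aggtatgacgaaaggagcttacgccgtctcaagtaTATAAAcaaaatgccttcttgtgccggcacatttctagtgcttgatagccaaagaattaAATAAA

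TATAAA, the core of the TATA box, stood on the mRNA strand in 49 of the 300 partner windows (16.3%) and in 581 of 5112 windows of all protein-coding genes (11.4%). On the XUT strand it stood in 32 partner windows (10.7%, against 9.51%). AATAAA, a form of the polyadenylation signal, differs from TATAAA only in its first letter, so that their matches can overlap. It stood on the XUT strand in 37 partner windows (12.3%, against 14.9%) and on the mRNA strand in 33 (11%, against 10.1%). The windows follow the reference's own gene starts. For 296 of 300 partners the start codon had the same position in the reference and in the authors' table, but the 5′ end was the same for only 19, lay upstream in the reference for 55 and downstream for 226. In the reference, a noncoding RNA on the other strand reached into 221 of the 300 partner windows (73.7%), against 2445 of 5112 windows (47.8%) of all protein-coding genes, to which the partners belong. The choice of the partners favours this higher share, since each was picked for an antisense XUT over its start. In the authors' table, 127 of the 300 XUTs share bases with an annotated ncRNA.

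Most XUTs covered the first part of the mRNA and left its larger part free. Their length had a median of 766 nt (224 to 5322 nt) and the overlap with the partner a median of 533.5 nt (61 to 4758 nt), or 30.2% of the mRNA (1.63% to 99.5%). They ran past the mRNA start by a median of 146.5 nt, from 1 to 2913 nt. The partner's start codon was covered in 259 pairs and not in 41. In 27 pairs a further mRNA of the opposite strand also overlapped the XUT by at least 50 nt.

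**Figure D1:**
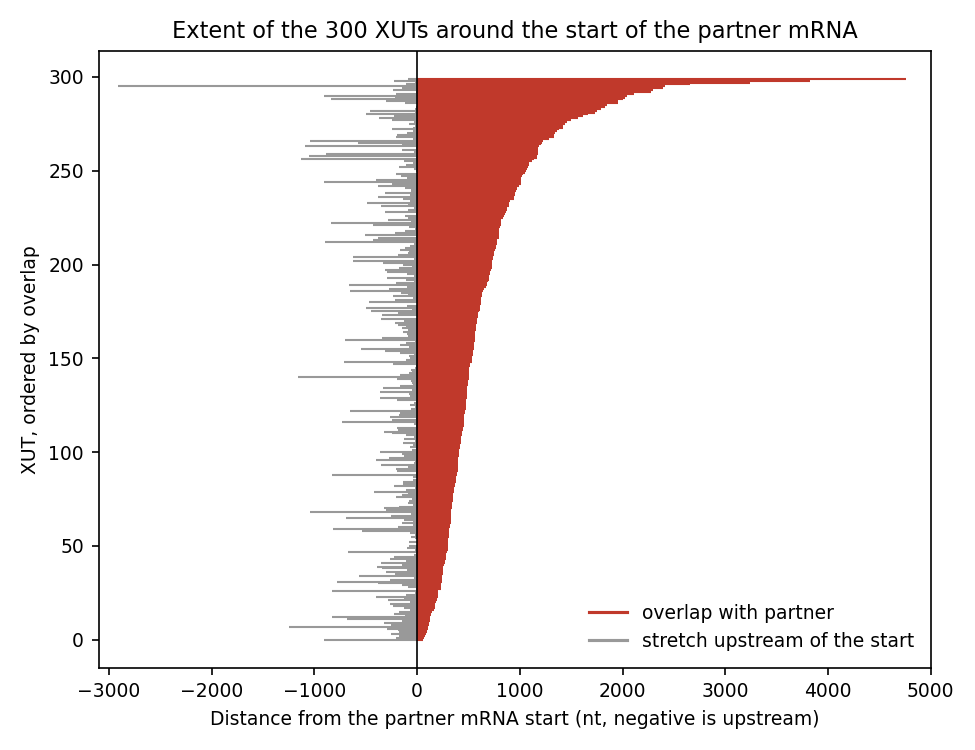
Each horizontal line is 1 of the 300 XUTs, placed by distance in nt from the start of its partner mRNA and ordered by overlap. Red is the overlap with the mRNA, median 533.5 nt, and grey is the stretch upstream of the start, median 146.5 nt.

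Most of these XUTs did not have a strand of the genome to themselves. Of the 300, 135 shared no base with another feature on their own strand, 125 shared bases with an annotated ncRNA only, 11 with a further noncoding transcription unit (nc-TU) of the table only, 28 with an mRNA and 1 with a pseudogene. Of the 28, 22 lay wholly inside the row of that mRNA. A read in a shared stretch was counted in each feature, so reads of those 165 XUTs cannot be assigned to the XUT alone.

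The deleted gene was itself a partner. The exo2 gene (I:1778445-1782740, plus strand) held 251 reads in WT and 26 in exo2Δ in its coding exons, 9.67-fold fewer, in the direction its label requires. The source of the 26 reads that remained in the deletion strain was not tested. XUT0549 (I:1778225-1779024, minus strand) crosses its start and runs 580 nt into the gene, over 2 of the 3 coding exons. It held 9 reads in WT and 71 in exo2Δ, 7.87-fold more (95% interval 3.92 to 17.9). Of its 800 nt, 476 nt lie within the coding span and 324 nt before the start codon. On the mRNA strand, the 309 nt of exo2 outside its coding exons went from 3 to 31 reads, at least 10.3-fold more against a floor of 3 reads for the WT library. The loss of Exo2 activity and the altered sequence of this locus cannot be told apart for this XUT.

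Small RNA reads of the XUTs were few and their sum was nearly equal in both libraries. The 300 XUTs held 2929 WT reads and 2941 exo2Δ reads, which at the deposited scaling is a log2 ratio of 0.0028 (95% interval -0.071 to 0.077). Against 13555082 WT and 13678760 exo2Δ reads in all features, this was 0.0216% and 0.0215%. The median XUT had 4 reads in WT and 4.5 in exo2Δ, or 0.0050 and 0.0057 tags per nt. XUTs without any read numbered 38 in WT, 31 in exo2Δ and 14 in both, and the 10 XUTs with the most reads held 40.0% of the WT and 24.4% of the exo2Δ reads. Reads rose with the length of the XUT, with a Spearman correlation across the 300 XUTs of 0.64 in WT and 0.70 in exo2Δ.

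The near equality of the sums held opposite parts. XUT0757 and XUT0522 alone went from 365 and 253 reads in WT to 43 and 68 in exo2Δ, and without this pair, an exclusion chosen after their values were seen, the other 298 XUTs held 2311 and 2830 reads, 1.22-fold more (1.16 to 1.29). The 227 XUTs with a mean under 10 reads held 704 and 884 reads, 1.25-fold more (1.13 to 1.39). Without XUT0549 at the deleted locus the sum was 2920 and 2870 reads, a ratio of 0.981 (0.931 to 1.03). The direction of the sum also moved with the scaling. Scaling on sn(o)RNAs shifted all log2 ratios by -0.24 and gave a log2 ratio of -0.24 for the 300 XUTs, while scaling on the median mRNA shifted them by 0.16 and gave 0.16, against 0.0028 as deposited.

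**Figure D2:**
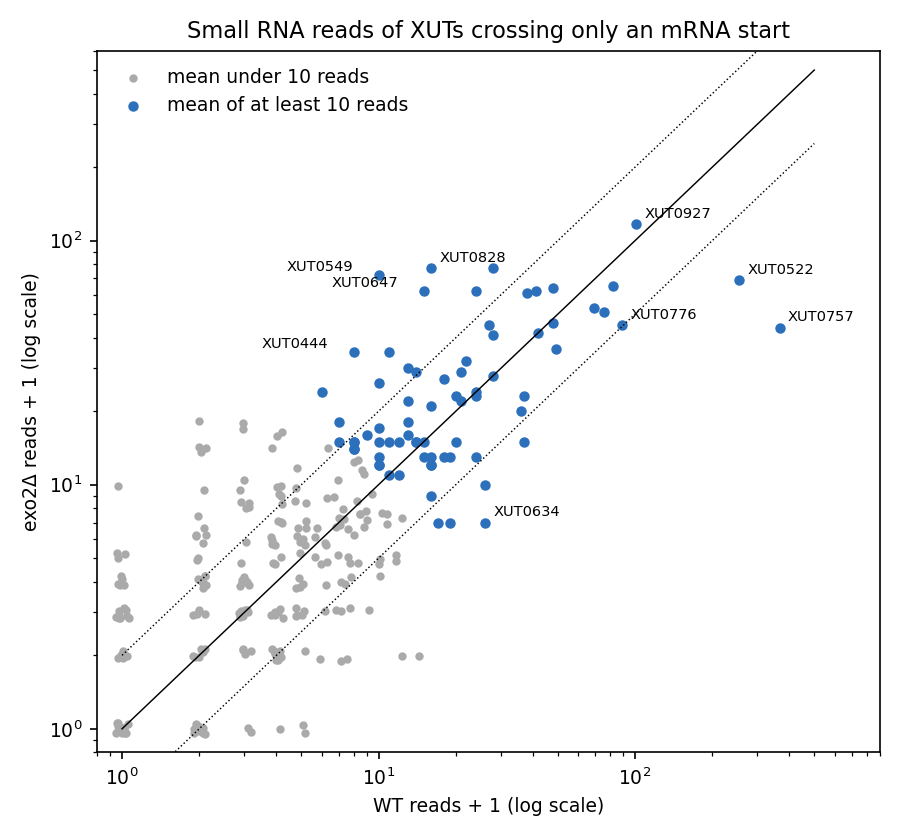
Each point is 1 of the 300 XUTs, with its WT reads plus 1 on the horizontal and its exo2Δ reads plus 1 on the vertical axis, both on a log scale. Grey points have a mean under 10 reads and are spread slightly at random so that ties can be seen; the solid line marks equal reads, dotted lines 2-fold, and XUT0757 and XUT0522 stand far to the right below the lower dotted line.

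A mean of at least 10 reads was reached by 73 of the 300 XUTs. Some of them passed through 1 library alone, and the log2 ratio of exo2Δ over WT, with 1 read added to each, understates changes of few reads. Their median log2 ratio was 0.26 (exact binomial 95% interval of the median -0.0029 to 0.47), with 42 above 0 and 31 below, beside -0.13 over all 5945 features tested. More than 2-fold higher were 13 of the 73 (17.8%), where 3.97% of all features tested were so, and more than 2-fold lower were 7 (9.59%), where 6.91% were. Among all 334 XUTs that passed, 14.7% were more than 2-fold higher and 7.49% more than 2-fold lower, close to the shares of the start-crossing XUTs. Over the 10 XUTs whose mean was 50 reads or more the median was -0.36 (-1.88 to 0.59), and over all 300 it was 0 (-0.0015 to 0.30), so no direction of the median was set at these counts. Near the filter, 9 XUTs had a mean from 9 to under 10 and 10 had a mean from 10 to under 11.

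Next to the XUT at exo2, the largest rises were at genes of chromosome segregation, sugar use and DNA repair. XUT0828 (III:546654-549420, plus strand) covers 75.8% of bir1, which encodes the survivin of the chromosomal passenger complex. It held 15 reads in WT and 76 in exo2Δ, 5.06-fold more (2.88 to 9.47), while bir1 held 92 and 95. It shares no base with another feature on its strand, so none of these reads was counted in another feature of that strand.

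XUT0444 (II:4488080-4489815, minus strand) covers 76.6% of gal1, the galactokinase gene, and is a pair that the study followed. It went from 7 to 34 reads, 4.85-fold more (2.12 to 13.0), with 55 and 47 reads in gal1. XUT0647 (I:3129622-3134464, minus strand) has the longest overlap of all, 4758 nt or 99.4% of rev3, which encodes the catalytic subunit of the translesion DNA polymerase zeta. It held 14 reads in WT and 61 in exo2Δ, 4.35-fold more (2.40 to 8.42), and rev3 held 71 and 66, so that in WT the mRNA strand had the higher density and in exo2Δ the strands were near each other, at 0.0126 tags per nt for the XUT and 0.0138 for rev3. XUT1401 opposite SPAC3H1.08c went from 5 to 23 reads, 4.59-fold more (1.71 to 15.5), with 79 and 60 reads in the mRNA. In each of these 4 pairs the XUT was more than 4 times as high in exo2Δ while the partner stayed within 2-fold.

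XUT1404 opposite cdt2, which encodes the substrate receptor of a ubiquitin ligase of DNA replication, went from 10 to 34 reads while cdt2 held 68 and 49. XUT0896, which covers 98.1% of the meiotic kinase gene mug27, went from 27 to 76 reads, 2.81-fold more (1.79 to 4.53), and mug27 from 48 to 30. The remaining XUTs past 2-fold lay between 1.05 and 1.38 on the log2 scale. Of the 13, 3 had a partner that was itself past 2-fold: exo2 and psu2 were lower in exo2Δ, and gto1 was higher. Over all partners that passed the filter, 31 of 278 (11.2%) were past 2-fold in either direction. At psu2 the XUT1197 went from 12 to 29 reads and the mRNA from 49 to 20.

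XUT0757 (I:5221897-5223001, minus strand) had the most reads and fell the most. It crosses the start of uga1, the GABA transaminase gene, which held 30 reads in WT and 31 in exo2Δ. Its 365 WT and 43 exo2Δ reads are an 8.51-fold fall (6.19 to 12.0). The 646 nt of an nc-TU inside it held 37 reads in both libraries, so the fall, from 328 to 6 reads, lay in the rest of the XUT. The XUT lies wholly inside the row of atg43, a gene of mitochondrial autophagy on the same strand, whose 418 and 88 reads leave 53 and 45 outside the XUT. atg43 is in turn the partner of XUT1612, which held 19 and 22 reads. The strand these transcripts share means that XUT0757 and atg43 count the same reads.

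XUT0522 (I:1162997-1163365, minus strand) shares no base with another feature of its strand. It crosses the start of rpc11, which encodes a subunit of RNA polymerase III, and covers 66.3% of this short gene. It held 253 reads in WT and 68 in exo2Δ, 3.73-fold fewer (2.84 to 4.95), while rpc11 held 59 and 78. In WT its density was 0.686 tags per nt against 0.127 for rpc11, making it one of the few pairs with more small RNA on the XUT strand. How its reads are placed along its 369 nt cannot be seen in the table.

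**Figure D3:**
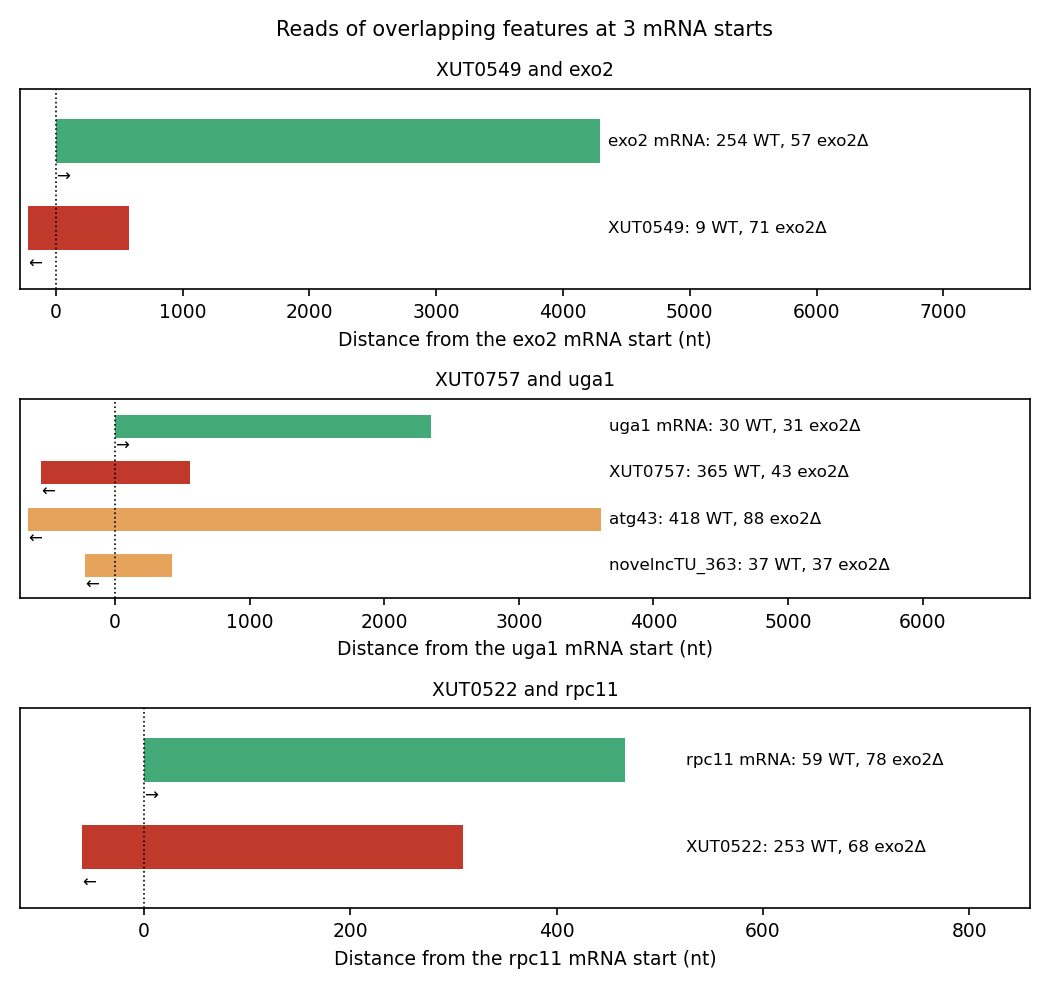
Bars show annotated features at 3 mRNA starts against distance in nt from the start of the partner mRNA, with arrows for the direction of transcription and the reads of each feature in WT and exo2Δ beside it. Partner mRNAs are green, XUTs red, and other features on the XUT strand orange; XUT0549 rose from 9 to 71 reads, XUT0757 fell from 365 to 43 and XUT0522 from 253 to 68.

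The other falls were of few reads. XUT0634 opposite hem4, the uroporphyrinogen-III synthase gene of heme synthesis, went from 25 to 6 reads (4.18-fold fewer, 1.67 to 12.4) of which the nc-TU inside it held 2 and 1. XUT0651 opposite nob1, the endonuclease that matures 18S rRNA, went from 18 to 6 reads (3.01-fold fewer, 1.14 to 9.25), and XUT1140 opposite the splicing factor gene syf2 from 25 to 9 (2.78-fold fewer, 1.26 to 6.78). Their partners hem4, nob1 and syf2 held 138, 91 and 31 reads in WT and 111, 98 and 40 in exo2Δ. None of the 7 XUTs more than 2-fold lower had a partner past 2-fold, a number too small to read against that share.

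Among the XUTs with the most reads, several changed little. XUT0927 opposite SPCC576.17c, the longest of all at 5322 nt, reaches 2913 nt past the mRNA start, the longest such stretch, and held 100 reads in WT and 116 in exo2Δ. XUT1520 opposite the kinase gene ppk18 held 81 and 64 reads, XUT1409 opposite SPAC23C11.06c 68 and 52, and XUT0385 opposite SPBPB7E8.01 47 and 63. The intervals of these 4 ratios include 1. XUT0776 opposite the amino acid permease gene isp5 went from 88 to 44 reads, 0.499 times as many (0.339 to 0.724), and lies wholly inside an annotated ncRNA that held 91 and 46.

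XUT1310 opposite pol4, a DNA polymerase gene of family X, held 75 and 50 reads (0.665 times as many, 0.456 to 0.964), with only 2 and 10 reads in pol4 itself. XUT0393 opposite mbx2, a MADS-box transcription factor gene, held 40 and 61 reads, so that WT had 0.657 times the exo2Δ reads (0.430 to 0.995), while mbx2 held 64 and 34. For the pair of XUT0433 and SPBC8E4.05c, which the study also named, the XUT held 12 and 21 reads and the mRNA 13 and 7. XUT1362, with the second longest overlap, lies opposite the cohesin gene psm3 and held 15 and 20 reads, against 179 and 169 in psm3. Past the start, XUT0888 at the TORC1 subunit gene tco89 and XUT0275 at osh2 reach 1246 and 1155 nt upstream, with 7 and 11 reads in WT and 6 and 14 in exo2Δ.

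The small RNA signal was far higher on the mRNA than on the XUT strand. The 300 partners held 42865 reads in WT and 33914 in exo2Δ, with a median of 80 and 66 reads and of 0.0431 and 0.0372 tags per nt. The partner had the higher density in 267 pairs in WT and in 260 in exo2Δ, and the XUT in 32 and 39. Coding exons held 83.3% of the partner reads in WT and 82.9% in exo2Δ. XUT and partner densities were only weakly related across the 300 pairs, which share a library and overlapping sequence, with a Spearman correlation of -0.18 in WT and -0.12 in exo2Δ.

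Summed over the 300 partners, reads in exo2Δ were 0.790 times those in WT (0.778 to 0.801). A single gene made much of this fall: ppk26, a protein kinase gene, held 4784 reads in WT and 1154 in exo2Δ, while XUT1144 at its start held 1 and 3. Of the ppk26 reads, 4464 in WT and 1007 in exo2Δ lay in its second coding exon, of 95 nt, which the end of XUT1144 falls in, and no other coding exon held more than 29. Without ppk26 the log2 ratio of the sum was -0.22 in place of -0.34. Of the 278 partners that passed the filter, 85 were above 0 and 193 below, with a median log2 ratio of -0.20 (-0.29 to -0.16). The 4043 mRNAs with no antisense XUT had a median of -0.15 (-0.17 to -0.13), the partners of XUTs inside an mRNA -0.15 (-0.19 to -0.10), and the partners of XUTs over an mRNA 3′ end -0.15 (-0.23 to 0.14). These intervals reflect the spread among genes and overlap, and a difference between the medians was not tested.

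More than 2-fold lower were 24 of the 278 partners (8.63%), and 7 were more than 2-fold higher (2.52%), where 6.91% and 3.97% of all features tested were. Among mRNAs with no antisense XUT the shares were 4.59% and 2.27%. In 19 of the 24 the coding exons alone were also more than 2-fold lower. At a mean of 50 reads or more, the partners with the largest falls were osh2, an oxysterol-binding protein gene, from 991 to 171 reads, and then atg43, exo2, ppk26 and the RNA-binding protein gene rnp24, from 112 to 29. The fall of osh2 was in its coding exons, from 981 to 165 reads, and that of rnp24 was partly outside them, from 65 to 4 reads. That of atg43 lay outside its coding exons, from 401 to 66 reads, while the exons held 17 and 22. The atg43 row also counts the reads of XUT0757. At osh2 the XUT0275 held 11 and 14 reads and at rnp24 the XUT0767 held 6 and 2. XUT0767 was under the filter, and a relation of these falls to the XUTs was not tested.

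The other partners more than 2-fold lower, picked out here after their values were seen, included genes with many reads. The RNA polymerase I subunit gene rpa49 went from 873 to 345 reads, apl5, of an adaptor complex in vesicle traffic, from 351 to 153, obr1 from 247 to 123, SPAPB24D3.07c from 209 to 60 and the shugoshin gene sgo2 from 60 to 28. The XUTs at rpa49 and apl5 held 0 reads in WT and 2 and 0 in exo2Δ, and those at obr1, SPAPB24D3.07c and sgo2 held 13, 9 and 15 in WT and 14, 12 and 11 in exo2Δ. The XUTs at rpa49 and apl5 were under the filter, so no change of theirs could be called. Those at obr1, SPAPB24D3.07c and sgo2 passed it and stayed within 2-fold.

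The largest rises were of lsd90, from 34 to 116 reads, of gto1, from 51 to 168, and of SPBPB7E8.01, from 339 to 797. The reads of lsd90 are uncertain, since its coding exons held 117 reads in exo2Δ, more than the gene row. At gto1 the XUT rose as well: XUT1627 went from 23 to 61 reads, 2.65-fold more (1.61 to 4.48), over an ncRNA of the same strand. Next came aar2, of spliceosome assembly, from 88 to 172 reads, and cmc1, of cytochrome oxidase assembly, from 36 to 70. Among the partners with the most reads, lcf1, for long-chain fatty acid activation, went from 1533 to 1098, the adenine synthesis gene ade2 from 804 to 895, the ribosomal protein gene rpl3801 from 811 to 659, and the O-mannosyltransferase gene ogm1 from 589 to 824. The XUTs at these 4 starts held at most 2 reads in either library.

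XUT and partner were set side by side in the 66 pairs where both passed the filter. The XUT was above 0 and the partner below in 32 pairs, both were below in 15, the XUT was below and the partner above in 12, and both were above in 7. Of all 278 partners that passed, 193 were below 0, and of all 73 XUTs that passed, 42 were above 0. Opposite signs in many pairs can follow from these shares alone, and a relation beyond them was not tested. Across the 66 pairs the log2 ratios had a Spearman correlation of -0.24 and a Pearson correlation of -0.22. These are given as a description, because the pairs share both libraries and overlapping sequence and include XUT0549 with the deleted exo2.

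**Figure D4:**
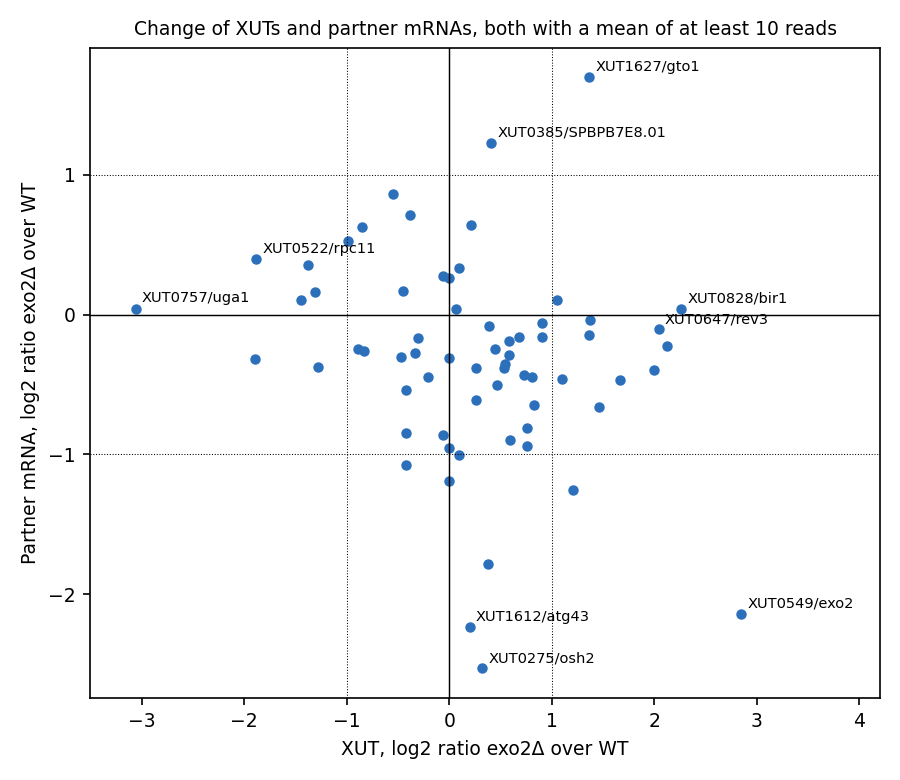
Each point is 1 of the 66 pairs, with the log2 ratio of exo2Δ over WT of the XUT on the horizontal and of the partner mRNA on the vertical axis; dotted lines mark 2-fold. The pair of XUT0549 and exo2 stands at the lower right, and XUT1627 with gto1 at the upper right.

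The overlap was compared within the group. XUTs over at least 75% of the partner (46 pairs) held 719 reads in WT and 963 in exo2Δ, 1.34-fold more (1.21 to 1.47), and those over 25% to under 50% (84 pairs) held 465 and 585, 1.26-fold more (1.11 to 1.42). Those under 25% (120 pairs) went from 1044 to 784 and those from 50% to under 75% (50 pairs) from 701 to 609, but these classes hold XUT0757 and XUT0522. Without them, the reads were 679 and 741 for the first class and 448 and 541 for the second, a ratio of 1.09 (0.980 to 1.21) and of 1.21 (1.06 to 1.37). XUT0757 and XUT0522 were left out after their values were seen. The class of at least 75% keeps XUT0828 (15 to 76 reads), XUT0444 (7 to 34), XUT0647 (14 to 61) and XUT0896 (27 to 76), all more than 2-fold higher. Its ratio of 1.34 therefore depends on which XUTs were removed, and its sum without these 4 was not computed. Of its 26 XUTs that passed the filter, 6 were more than 2-fold higher and 2 more than 2-fold lower. Among all XUTs that passed, 14.7% were higher and 7.49% lower, and among all features tested 3.97% and 6.91%. The partners' median density in WT was 0.0272 tags per nt at an overlap of at least 75%, against 0.0413 to 0.0475 in the other classes. Partner length differs between these classes as well, and its part was not tested.

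The XUTs that share no base with another feature on their strand held 700 reads in WT and 788 in exo2Δ (1.12-fold, 1.01 to 1.25), and without XUT0522 447 and 720 (1.61-fold, 1.43 to 1.81). XUT0522, and XUT0757 below, were left out after their values were seen. The rises of XUT0549 (9 to 71 reads), XUT0828 (15 to 76) and XUT0647 (14 to 61) were kept, so the 1.61 depends on which XUTs were removed. Over the 14 of the 135 XUTs of this class that passed the filter the median log2 ratio was 0.76, but with an interval from -1.28 to 2.04. Of the 14, 4 were more than 2-fold higher and 3, with XUT0522, more than 2-fold lower. These are few to read against the 14.7% and 7.49% of all XUTs that passed, or the 3.97% and 6.91% of all features tested. The 136 that share bases only with an ncRNA or an nc-TU held 1697 and 1940 reads (1.14-fold, 1.07 to 1.22). The 28 that share bases with an mRNA held 496 and 199 reads, and without XUT0757 131 and 156 (1.19-fold, 0.936 to 1.51). Of the XUTs that leave the start codon of the partner uncovered, which include XUT0757, 41 held 855 and 533 reads, and the 40 without it 490 in both libraries, while the 259 that cover it held 2074 and 2408 (1.16-fold, 1.09 to 1.23).

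The partner exons facing the XUT were compared with the rest of the same mRNA. Of the partners, 48 had some coding exons that lay entirely within the XUT and others entirely beyond it. The exons inside held 1037 reads in WT and 697 in exo2Δ, a ratio of 0.671 (0.608 to 0.739), and those outside 5930 and 4760, a ratio of 0.801 (0.771 to 0.832). The density inside relative to outside fell in 33 partners, rose in 14 and was equal in 1, with a median log2 change of -0.40 (-0.62 to -0.11). With 5 added reads in place of 1 the median was -0.19 (-0.41 to 0.029), and over the 18 partners whose mean reached 10 reads both inside and outside -0.44 (-0.80 to 0.074). The sense reads facing the XUT thus went down more than the rest of the mRNA in the median, with intervals that reached 0 in both alternatives.

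The exons inside a XUT include the first and often further coding exons. In a separate contrast, chosen after the values above were seen, first coding exons were compared with the other coding exons in all mRNAs with more than 1. The median log2 change of the first exon relative to the others was -0.26 (-0.48 to -0.12) in 132 partners, -0.046 (-0.092 to -0.0015) in 1886 mRNAs with no antisense XUT, and -0.047 (-0.17 to 0.068) in 376 other mRNAs with an antisense XUT. With 5 added reads it was -0.14 (-0.28 to -0.0086) in the partners. In sum, first exons of the partners held 2219 and 1552 reads, a ratio of 0.698 (0.654 to 0.745), and their other exons 17525 and 11735, a ratio of 0.668 (0.653 to 0.684). Without ppk26, left out after its values were seen, the ratios were 0.698 (0.653 to 0.745) and 0.817 (0.796 to 0.838), so that 1 gene set the order of the sums. The median first exon of the partners held 7.5 reads in WT, a depth at which single reads move a ratio.

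The chromosomes differed through single XUTs. The 140 XUTs of chromosome I, which carries XUT0757, XUT0522 and the exo2 locus, held 1814 reads in WT and 1480 in exo2Δ. The 116 of chromosome II held 753 and 928 reads (1.23-fold, 1.12 to 1.36), and the 44 of chromosome III 362 and 533 (1.47-fold, 1.28 to 1.68), where XUT0828 and XUT0896 lie. Partners were lower in exo2Δ in sum on each chromosome, from 18594 to 15958 reads on I, from 18575 to 12726 on II with ppk26, and from 5696 to 5230 on III.

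Set beside the other positions of antisense XUTs, the start-crossing XUTs held 10.5 summed reads per 1000 nt in both libraries. XUTs covering a whole mRNA held 12.3 in WT and 15.0 in exo2Δ, XUTs inside an mRNA 11.5 and 11.6, and XUTs over an mRNA 3′ end 624 and 760, of which 1 XUT held 71.9% in WT. A single XUT also held 30.3% of the WT reads of XUTs inside an mRNA. The top shares were 12.5% for start-crossing XUTs and 10.7% for those covering a whole mRNA. The order by summed reads can therefore rest on single XUTs, and it was not computed without them. Of the start-crossing XUTs 12.7% had no WT read, against 29.3% of those inside an mRNA, and their median density, given above, was higher than the 0.0033 and 0.0046 tags per nt of the latter. mRNAs of the whole table held 176 and 152 reads per 1000 nt.

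**Figure D5:**
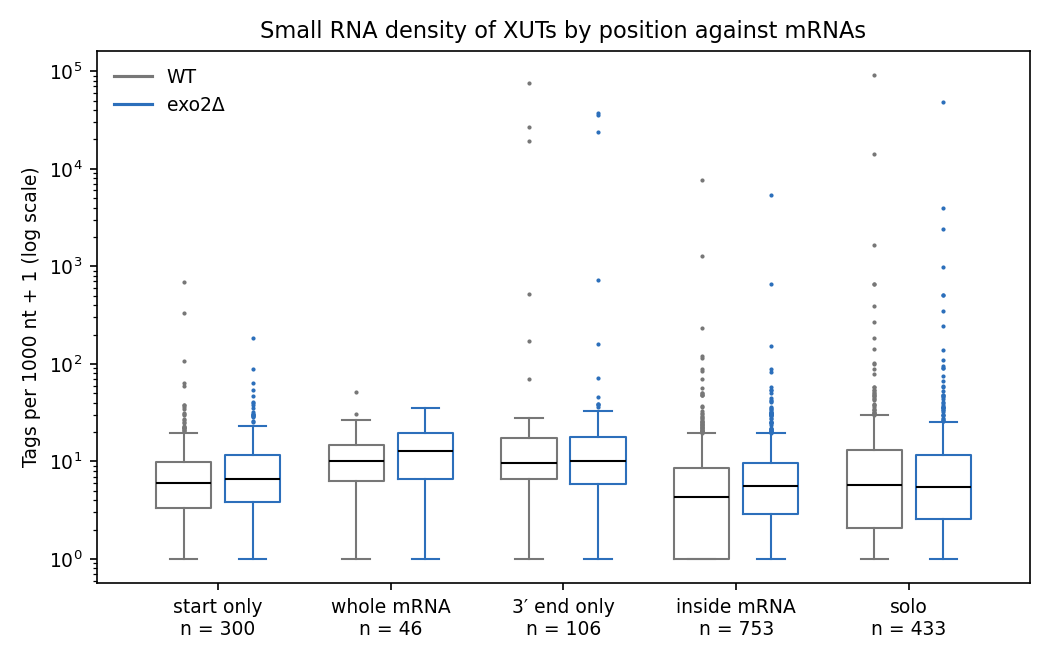
Boxes show the tags per 1000 nt plus 1, on a log scale, of XUTs by their position against opposite mRNAs, in WT (grey) and exo2Δ (blue); boxes span the quartiles, the line is the median, whiskers reach 1.5 times the box height and dots are XUTs beyond them. The 300 start-crossing XUTs have medians of 0.0050 and 0.0057 tags per nt, lower than those of XUTs over a whole mRNA or a 3′ end and higher than those of XUTs inside an mRNA.

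Partners were described by their roles, from lists of genes chosen with earlier results of these data known. Of 140 DNA replication and repair genes in the table, 12 were partners (8.57%, against 5.85% of all 5129 genes). All 12 passed the filter, 10 were below 0 and 2 above, where 193 of all 278 partners that passed were below 0. None was past 2-fold, where 11.2% of the 278 partners that passed were, and 12 genes are too few to read against that share. The median log2 ratio was -0.46, beside -0.20 over the 278 partners, and the difference was not tested. The replication licensing gene cdc18 went from 72 to 42 reads, orc1, of the origin recognition complex, from 100 to 52, the base excision repair gene nth1 from 32 to 16, and the recombination gene rad52 from 86 to 61, while the mismatch repair gene msh6 held 280 and 294. Their XUTs held 61 reads in WT and 122 in exo2Δ, with the rise at XUT0647 and XUT1404, described above for rev3 and cdt2. The XUTs at cdc18, orc1, nth1 and rad52 held 2 to 6 reads each, so no change of theirs could be detected at this depth.

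Of 37 genes of RNA interference and heterochromatin, 4 were partners (10.8%, against 5.85% of all genes). The centromere protein B homolog gene cbh1 went from 159 to 69 reads, with XUT1551 at 3 and 16, and arb1, of an Argonaute complex, from 60 to 33, with XUT0556 at 15 and 11. The HP1 gene swi6 held 186 and 150 reads and the RNA interference gene dsh1 49 and 54, with XUTs of at most 4 reads. Of these 4 partners, cbh1 alone was more than 2-fold lower and none was higher. Of the 278 partners that passed, 8.63% were lower and 2.52% higher, and of all features tested 6.91% and 3.97%. A count among 4 genes is too small to read against these shares.

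Of 63 transcription factor genes, 6 were partners (9.52%, against 5.85% of all genes), with 3 above 0 and 3 below. Of all 278 partners that passed, 85 were above 0. Besides mbx2, the GATA-type factor gene ams2 went from 169 to 125 reads with XUT0127 at 26 and 44, and grt1 from 12 to 40 with XUT0962 at 1 and 13. The stress factor gene pap1 held 288 and 339 reads, with 2 reads of its XUT in both libraries. Of 78 membrane transporter genes, 7 were partners (8.97%), with 5 above 0 and 2 below and a median log2 ratio of 0.21. The multidrug exporter gene pmd1 went from 249 to 471 reads and the copper transporter gene ctr5 from 369 to 231, with XUTs of at most 3 reads. Of 112 genes of meiosis and mating, 6 were partners (5.36%). None of the 5 that passed was past 2-fold, a number too small to read against the 11.2% of all 278 partners that passed. The spore wall glucan synthase gene bgs2 held 124 and 111 reads with XUT1462 at 37 and 60, the XUT with the most reads on this list.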

How the data were processed

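Small RNAs of 10 to 40 nt were sequenced as single 40-nt reads from 1 WT and 1 exo2Δ library. Per the submitters' processing notes, adapters were removed with cutadapt and reads mapped with Bowtie on ASM294v2, and per the study's methods uniquely mapped reads were kept with up to 3 mismatches. The values deposited by the authors are a signal per feature, namely its tag density (tags per nt). Whether reads were filtered on length was not determined here. All value columns belonged to these libraries.

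Density multiplied by feature length was whole, within 0.001 read, in 100% of WT rows and a whole multiple of 0.998 in 100% of exo2Δ rows, and reads were recovered from these steps. That factor was kept as the deposited scaling. Of the 19343 rows, 10204 are coding exons of the gene rows and entered no total. Log2 ratios used 1 added read and features whose mean reached 10 reads, and a change of more than 2-fold stood in for a test. Folds carry exact binomial 95% intervals and medians exact binomial intervals over features. The reads carry no molecular identifiers. Intervals of folds cover counting error only, those of medians reflect the spread over features, and none covers a difference between replicates. A count of at most 3 reads was the floor.

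The table's coordinates are given for features. Sequences came from the reference ASM294v3, found by locus tag in its own annotation, where 98.4% of 10190 coding exons kept their coordinates. The same annotation gave a symbol to 245 of the 300 partners.

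Members, gene lists and the rule for named genes were chosen with earlier results of these data known. Named were exo2; the 10 XUTs with the most reads; the 5 XUTs with the largest ratio in each direction; pairs the study names; the partners with the 5 largest means and, at a mean of 50 reads or more, the 5 largest ratios in each direction; the 3 longest overlaps and the 3 longest stretches past a start; and partners on the gene lists. psu2 and 5 further partners that were lower, named as such, were chosen after their values were seen. Python 3.11.15, pandas 2.3.3, numpy 2.4.6, scipy 1.17.1 and matplotlib 3.10.9 were used. Read recovery, pairing and calls were tested on simulated data.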

Additional observations from a re-analysis of the deposited data

How the results depend on the processing

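No paired analysis was possible because WT and exo2Δ had 1 library each, so no replicate could be left out either. Of 55 alternative values, 27 stayed within the interval of the main value, or within 1.5 times a main count. Scaling on sn(o)RNAs or on the median mRNA moved the log2 ratio of the summed XUT reads from 0.0028 to -0.24 or 0.16, that of the partners' sum from -0.34 to -0.58 or -0.19, and the partners' median from -0.20 to -0.44 or -0.054. XUTs more than 2-fold lower went from 7 to 11 and partners more than 2-fold lower from 24 to 45 with sn(o)RNA scaling, and partners more than 2-fold higher from 7 to 11 with mRNA scaling. Without a filter, 61 of 300 XUTs were higher and 37 lower, and 12 of 300 partners were higher. At a mean of 50 reads or more, 1 of 10 XUTs was higher and 2 were lower, 3 of 202 partners were higher, and the XUT median was -0.36. At 4-fold, 4 of 73 XUTs were higher and 1 lower, and of 278 partners 0 were higher and 5 lower. Shares over all features were not computed at these settings, so these counts have no background beside them. With XUTs that share no feature on their strand, the XUT median was 0.76, the log2 ratio of their sum 0.17 and that of their partners' sum -0.41. An overlap of at least 1 nt gave -0.32 for the partners' sum. Without the feature with the most reads the log2 ratio was 0.17 for the XUT sum and -0.22 for the partner sum, and without XUT0757 and XUT0522, chosen after seeing the data, 0.29 for the XUT sum. Without ppk26, also chosen after seeing the data, the log2 ratio of first to other coding exons of the partners went from 0.063 to -0.23 in sum. The cause of these moves was not tested beyond what each alternative leaves out. At a median of 4 reads, a change of a single XUT was mostly not detectable.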
